A study of Felis catus with 23 samples.

Results

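The let-7 family was measured in cat serum with probes for the human 5p strands hsa-let-7a-5p, hsa-let-7b-5p, hsa-let-7d-5p, hsa-let-7e-5p, hsa-let-7f-5p, hsa-let-7g-5p and hsa-let-7i-5p, written below without the species prefix. The members were taken by probe name, with earlier results of these data known, and came to 7 of the 2026 miRNA names on the array and 14 of its 4944 probes. The sera came from 12 healthy cats (Felis catus) and 11 cats with HCM, hypertrophic cardiomyopathy, in which the wall of the left ventricle thickens, with 1 array per cat. The labels give no breed, age, sex, genotype or treatment for either group, so that the groups are known by disease status alone. Serum holds no cells of its own, and its miRNAs can come from any tissue or from blood cells. The array is a human design, and its probes were not matched to cat miRNAs here.

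The let-7 miRNAs are among the most conserved small RNAs of animals and were first described in the worm Caenorhabditis elegans, where they time the passage to adult fates. The mature 5p strands share a seed, the stretch near the 5′ end that pairs with target messages, and are known to repress growth regulators such as RAS, MYC and HMGA2. LIN28 blocks the processing of their precursors in early development, and in adult mammals the family is abundant in many differentiated tissues, heart and blood cells included. Because the mature strands differ at few bases, a probe for one member can also bind another, and the signals below are those of probes rather than of strictly separate miRNAs. No probe or miRNA sequences are shown.

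By the main detection rule, let-7b-5p and let-7i-5p were detected on 10 or more arrays, let-7g-5p and let-7a-5p on 2 and 1, and let-7d-5p, let-7e-5p and let-7f-5p were detected in no serum. Detection on an array required that 50% or more of the spots of the name's main probe carry the scanner software's flag for signal well above background. The main probe was that of highest mean log2 value, and for let-7d-5p and let-7e-5p, whose probes all lay at the floor, the first by probe number. let-7b-5p was detected in 14 of 23 sera, 6 with HCM and 8 healthy. let-7i-5p was detected in 10 sera, 4 with HCM and 6 healthy. let-7g-5p was detected in HCM replicate 10 and healthy replicate 16, and let-7a-5p in healthy replicate 16 alone. By these counts 4 of 7 members were detected on at least 1 array and 2 on at least 6 arrays, beside 34.9% and 26.8% of all 2026 names, and 3 of 7 were detected on none, beside 65.1%. No member was among the 13.3% of names detected on every array. These counts depend on the flag used. With the weaker flag for a positive and significant spot, let-7b-5p and let-7i-5p were each detected on 23 arrays, let-7a-5p on 10, let-7g-5p on 6 and let-7f-5p on 4.

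**Figure D1:**
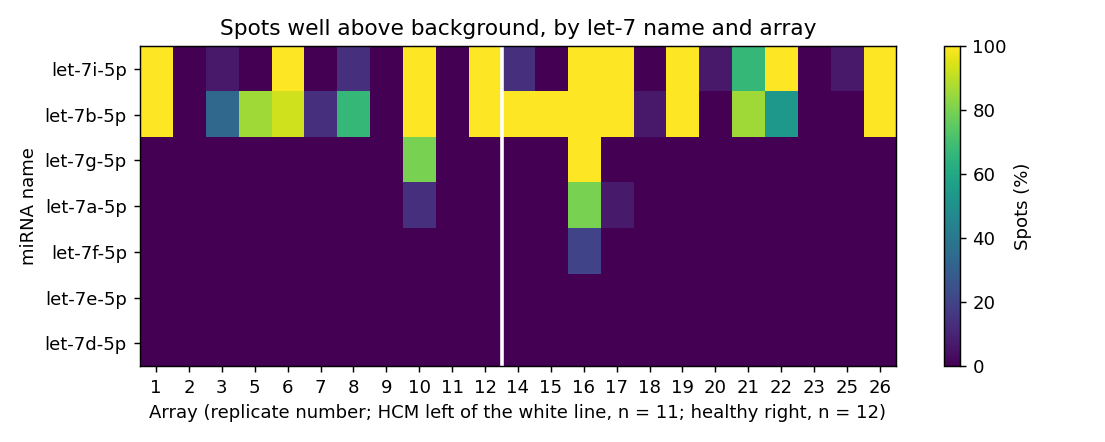
Share of spots (%, colour scale) that were well above background for the main probe of each of the 7 let-7 names (rows) on each of the 23 arrays (columns, HCM left of the white line and healthy right). Signal was carried by let-7b-5p and let-7i-5p, and let-7g-5p and let-7a-5p reached 50% of spots only on HCM replicate 10 or healthy replicate 16.

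The same order appeared when the spots of both probes of a name were pooled over the 23 arrays. For let-7b-5p, 368 of 671 spots (54.8%) were well above background, and for let-7i-5p 276 of 677 (40.8%). The share was 34 of 682 (4.99%) for let-7g-5p and 15 of 672 (2.23%) for let-7a-5p. For let-7f-5p it was 5 of 682 (0.733%), for let-7e-5p 1 of 683 (0.146%) and for let-7d-5p 0 of 679. Spots of a probe on an array share the same RNA, so these shares describe the probes and are not independent measurements.

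By array, 9 sera had no detected let-7 member (5 HCM, 4 healthy) and 4 had 1 (2 in each group). Another 8 sera had 2 members (3 HCM, 5 healthy), which were always let-7b-5p and let-7i-5p. HCM replicate 10 had 3 and healthy replicate 16 had 4. let-7i-5p was detected on no array without let-7b-5p, while let-7b-5p was detected on 4 arrays without let-7i-5p.

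The arrays differed in overall brightness, which touches each level below. The 75th percentile of the 508 probes detected on all arrays ran from 90.5 to 699 intensity units, with a median of 290 in HCM and 240 in healthy sera, and each array was scaled to this percentile. Between 322 and 608 names were detected per array. On all 3 slides the HCM sera lay in the first row and the healthy sera in the second, so slide row and group cannot be told apart. Serum has no defining cell marker, and blood cell and tissue miRNAs are given further on beside the result they move with.

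Ranked by mean scaled intensity, the main probes led with let-7i-5p (14.9, range 1.12 to 123 over 23 arrays) and let-7b-5p (10.9, range 2.78 to 51.5). The means of the other 5 were 2.06 (let-7g-5p) or less and lay under the floor of 5.45 (the 5th percentile of the scaled signals of detected probes), below which scaled values have no order. let-7b-5p was brighter than let-7g-5p on 23 of 23 arrays, but it lay above the floor, where that order can be read, on 15 of them. let-7i-5p and let-7b-5p did not separate. With values under the floor set to it, let-7i-5p was the higher on 8 arrays and let-7b-5p on 7. On the remaining 8 arrays both lay at the floor. The higher mean of let-7i-5p came with a lower median (6.60 against 8.47). Brightness depends on the probe as well as on the RNA, so this is an order of probe signals and not of miRNA amounts.

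On the log2 scale, values under the floor were set to 2.45. For let-7b-5p the HCM sera had a lowest value of 2.45, a median of 2.54 and a highest of 4.55, and the healthy sera 2.45, 3.31 and 5.69. At the floor lay 5 HCM and 3 healthy sera. The groups overlapped over most of their range, while 10 of 11 HCM sera were below the healthy median. The 5 highest arrays were healthy replicate 16 (5.69), HCM replicate 10 (4.55), and healthy replicates 17 (4.47), 19 (4.23) and 22 (4.09).

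let-7b-5p averaged 2.90 ± 0.65 in HCM (SD, n = 11) and 3.47 ± 0.99 in healthy sera (n = 12). The difference, HCM minus healthy, was -0.56 on the log2 scale (SE 0.33, 95% confidence interval -1.25 to 0.12) and did not pass the test (limma, p = 0.103, adjusted p = 0.802 over 543 tested names). 

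For let-7i-5p the HCM sera had a lowest and a median value of 2.45 and a highest of 5.67. The healthy sera had 2.45, 3.01 and 6.95. At the floor lay 6 HCM and 4 healthy sera, and 7 of 11 HCM sera were below the healthy median, so that the overlap was wider than for let-7b-5p. The highest arrays were healthy replicate 16 (6.95), HCM replicate 10 (5.67), healthy replicate 22 (5.04), healthy replicate 17 (4.43) and HCM replicate 12 (4.08).

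let-7i-5p averaged 3.06 ± 1.02 in HCM (SD, n = 11) and 3.48 ± 1.37 in healthy sera (n = 12). The difference was -0.43 (SE 0.47, 95% confidence interval -1.40 to 0.54) and did not pass (limma, p = 0.374, adjusted p = 0.802). The intervals of both members include 0 and also decreases of more than 1 log2 unit.

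**Figure D2:**
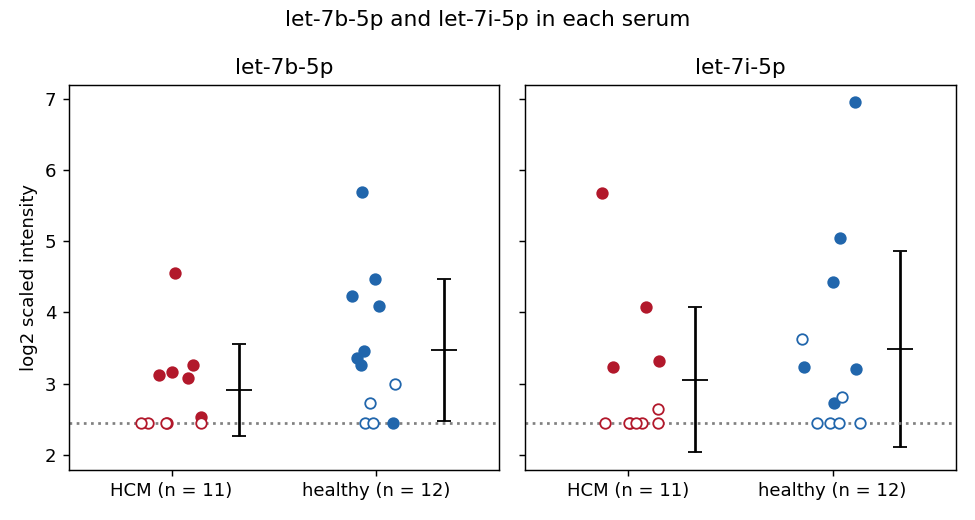
log2 scaled intensity of let-7b-5p (left) and let-7i-5p (right) in each serum, with HCM (n = 11) in red and healthy (n = 12) in blue. Filled points are detected and open points not detected, the dotted line is the floor at 2.45, and black bars show the mean ± SD. The groups overlap for both, and healthy replicate 16 is the highest point in each panel (5.69 and 6.95).

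These values stand against a background in which no miRNA name passed. limma called 0 of 543 names (0%) at an adjusted p of 0.05, with a lowest adjusted p of 0.238, and 36 names (6.63%) had an unadjusted p under 0.05, among which neither let-7 member was found. Of those 36, 20 were higher in HCM (3.68%) and 16 lower (2.95%). Differences were negative for 361 of 543 names (66.5%), with a median of -0.10 over all of them, so that a negative sign for 2 of 2 tested members is near the background. The median difference of the 2 members was -0.50. Relative to the median of all tested names, let-7b-5p differed by -0.46 and let-7i-5p by -0.33.

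The share of sera with detected let-7b-5p (6 of 11 against 8 of 12) and let-7i-5p (4 of 11 against 6 of 12) did not pass Fisher's exact test (2-sided exact p = 0.680 for each, adjusted p = 1 over 438 names). That test called 0 of 438 names (0%) after adjustment, with 18 (4.11%) under an unadjusted exact p of 0.05. From the scanner values no fold is given for let-7a-5p, let-7d-5p, let-7e-5p, let-7f-5p or let-7g-5p, which were not well above background on most arrays of both groups. Their highest unscaled intensity on either probe was 8.07 for let-7a-5p, 0.559 for let-7d-5p, 1.11 for let-7e-5p, 4.94 for let-7f-5p and 11.9 for let-7g-5p.

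Within slides the sign was the same. let-7b-5p differed by -0.56, -0.35 and -0.84 on slides 1, 2 and 3, and let-7i-5p by -0.72, -0.24 and -0.41. With slide as a block, let-7b-5p differed by -0.58 (limma, p = 0.0903, adjusted p = 0.742) and let-7i-5p by -0.44 (p = 0.344, adjusted p = 0.799), in a fit that called 0 of 543 names (0%) and had 44 (8.10%) under an unadjusted p of 0.05.

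Single arrays moved the size of both differences. Without healthy replicate 16 the limma difference was -0.36 for let-7b-5p and -0.11 for let-7i-5p, and without HCM replicate 10 it was -0.73 and -0.69. Which serum came highest also turned on the scaling. Before scaling, HCM replicate 10 was the brightest for let-7b-5p (39.2 against 33.5 in healthy replicate 16) and for let-7i-5p (85.0 against 80.0). Healthy replicate 22, among the highest after scaling, had a let-7b-5p intensity of 6.94 on an array whose 75th percentile was 104.

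No relation of the scaled let-7 levels to array brightness passed a permutation test. Against the log2 75th percentile of the array, let-7b-5p had a Pearson's r of -0.085 (permutation p = 0.700, adjusted p = 0.700) and a Spearman's rho of 0.030 (p = 0.891, adjusted p = 0.891). let-7i-5p had an r of -0.159 (permutation p = 0.471, adjusted p = 0.589) and a rho of -0.133 (p = 0.537, adjusted p = 0.672). Without the 2 dimmest arrays, healthy replicates 20 and 25, the r was -0.200 and -0.214. Within groups it was 0.383 in HCM and -0.110 in healthy sera for let-7b-5p, and 0.564 and -0.363 for let-7i-5p, so the sign was not the same in both groups. On slides 1, 2 and 3 it was -0.180, -0.018 and -0.497 for let-7b-5p and -0.592, -0.142 and -0.418 for let-7i-5p.

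Detection of let-7b-5p was commoner on bright arrays. Arrays on which it was detected had a median 75th percentile of 340 (range 104 to 699), and the others 264 (90.5 to 308). For let-7i-5p the medians were 311 (104 to 503) and 269 (90.5 to 699). On the brightest array of all, healthy replicate 15, let-7b-5p was detected and yet lay at the floor after scaling. The part of array brightness in the detection counts was not tested.

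let-7b-5p and let-7i-5p varied together over the sera. Their log2 values had a Pearson's r of 0.889 over 23 arrays and a Spearman's rho of 0.825 (permutation p = 1e-05 for each, the smallest that 100000 resamples can give, adjusted p = 5e-05 over the 5 relations computed). Without healthy replicate 16 and HCM replicate 10, the 2 arrays farthest from the median of let-7b-5p, r was 0.756. It was 0.922 in HCM and 0.883 in healthy sera, and 0.853, 0.794 and 0.939 on slides 1, 2 and 3. On 8 arrays both names were at the floor, and over the 13 arrays with both above it, a choice made after the values were seen, r was 0.842 (permutation p = 0.00066). In the authors' deposited table it was 0.481 (permutation p = 0.0233), with the let-7b-5p value of HCM replicate 5 described further on.

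The distance between the pair varied from serum to serum. Over the 13 arrays with both above the floor, the log2 signal of the let-7i-5p probe minus that of the let-7b-5p probe ran from -0.99 in healthy replicate 19 to 1.26 in healthy replicate 16, above 0 on 8 arrays and below 0 on 5. It compares signals of different probes, so its variation and not its level is described. The sera with the most let-7 signal, healthy replicate 16 and HCM replicate 10 (1.12), were on the let-7i-5p side. Since both names share the array and its scaling, and their sequences are close, the correlation describes the probes and was not tested for cross-hybridisation.

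**Figure D3:**
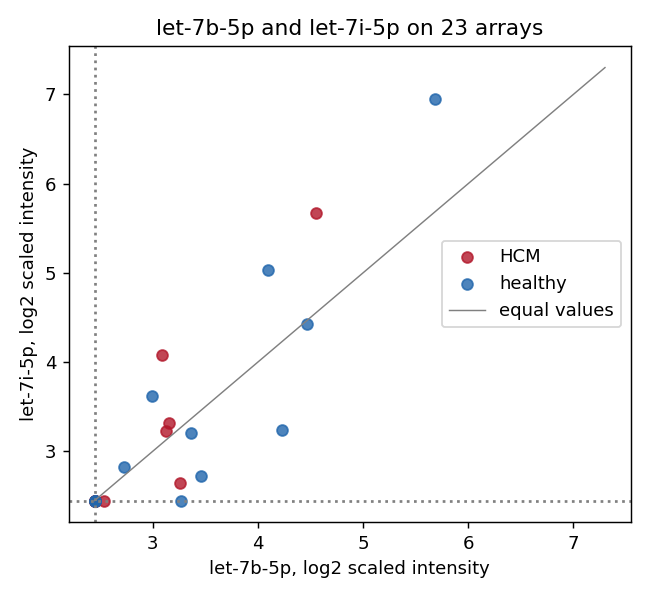
let-7i-5p against let-7b-5p, each as log2 scaled intensity, on the 23 arrays (HCM red, healthy blue), with the line of equal values in grey and the floors dotted. The 2 names vary together (r = 0.889, and 0.481 in the deposited values), and 8 arrays lie at both floors in the lower left corner.

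For the 2 tested members, the second probe of each name varied with the first. Over the 23 arrays the main and the other probe correlated at r = 0.989 for let-7b-5p and r = 0.987 for let-7i-5p, as a description of technical precision within an array. The other probe gave a difference of -0.46 for let-7b-5p and -0.39 for let-7i-5p, close to the -0.56 and -0.43 of the main probes.

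Among the other 542 tested names, those whose levels were most like let-7b-5p over the 23 arrays were let-7i-5p (Pearson's r 0.889), miR-26a-5p (0.870), miR-106b-5p (0.837), miR-451a (0.836) and miR-29b-3p (0.806). For let-7i-5p they were miR-26a-5p (0.934), miR-19b-3p (0.914), miR-451a (0.909), miR-29b-3p (0.896) and let-7b-5p (0.889). The median r over all other names was 0.0098 for let-7b-5p and 0.031 for let-7i-5p. The points share arrays and scaling, and no p is given for these ranks. miR-451a, which is made in maturing red cells and is plentiful in them, was thus near the top for both. Other red cell names ranked lower for let-7b-5p and let-7i-5p, with r of 0.562 and 0.509 for miR-144-3p (ranks 39 and 41). For miR-486-5p the r was 0.427 and 0.251 (ranks 56 and 114). The myeloid and platelet miR-223-3p had 0.749 and 0.828 (ranks 11 and 6).

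Red cell signal was therefore set beside the let-7 levels. miR-451a averaged 5.56 ± 1.66 in HCM (SD, n = 11) and 6.45 ± 2.41 in healthy sera (n = 12), a difference of -0.90 that did not pass (limma, p = 0.274, adjusted p = 0.802). It was highest in healthy replicate 16, at 12.3, the serum in which 5 of 7 main let-7 probes, all but let-7d-5p and let-7e-5p, were also brightest after scaling. miR-451a minus miR-23a-3p on the log2 scale, a common measure of red cell lysis in serum, was 3.22 in healthy replicate 16 and 2.31 in healthy replicate 22, the 2 highest values.

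Against that measure, let-7b-5p had a Pearson's r of 0.608 (permutation p = 0.00282, adjusted p = 0.0047), and a Spearman's rho of 0.306 (p = 0.154, adjusted p = 0.256). let-7i-5p had an r of 0.699 (permutation p = 0.00065, adjusted p = 0.00162) and a rho of 0.402 (p = 0.0575, adjusted p = 0.144). Without healthy replicates 16 and 22 the r was 0.261 and 0.341, so that those sera carried much of the Pearson relation to this measure. Within groups it was 0.144 in HCM and 0.760 in healthy sera for let-7b-5p, and 0.285 and 0.891 for let-7i-5p. On slides 1, 2 and 3 it was 0.180, 0.462 and 0.906 for let-7b-5p, and 0.438, 0.624 and 0.908 for let-7i-5p.

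The other markers did not move with a common sign. Of the red cell names, miR-144-3p differed by 0.41 and miR-486-5p by 0.07, and miR-16-5p was detected on 3 arrays. miR-223-3p, a myeloid and platelet miRNA, differed by -0.56 and miR-23a-3p by -0.02, while miR-126-3p, an endothelial and platelet miRNA, and the lymphoid miR-150-5p were detected on 1 array each. The liver miRNA miR-122-5p was detected on 10 arrays and differed by 0.02. Of the muscle miRNAs, miR-1 was detected on 0 arrays and miR-133a and miR-499a-5p on 1 each. The part of red cell or other cell RNA in the let-7 values was not tested.

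Other names of the let-7 pathway were scarce or did not pass. Of 18 related names, 4 were tested, 4 had a negative difference after scaling and 0 passed (0% of all tested names passed, and 66.5% were negative). Among the 5 names with the same or a close seed, miR-4458 was detected on 14 arrays and differed by -0.40 (limma, p = 0.184, adjusted p = 0.802), and miR-202-3p was detected on 23 arrays and differed by -0.39 (p = 0.237, adjusted p = 0.802). let-7c, a close relative of let-7b, was detected on 3 arrays (1 HCM, 2 healthy), and miR-98-5p and miR-4500 on 0. The 5 miRNAs made from shared transcripts with let-7 members gave as little: miR-99a-5p was detected on 3 arrays, miR-99b-5p on 2, miR-100-5p on 1, and miR-125a-5p and miR-125b-5p on 0.

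Of the 8 passenger (3p) strands, which are usually degraded after processing, let-7b-3p was detected on 23 arrays and let-7f-1-3p on 22. By the main rule this was more often than any 5p member, but the probes compared are unlike. Each of these 3p names has 4 probes, and the one used, that of highest mean, has 8 spots. Each 5p name has 2 probes with 15 spots. Detection by the other 3p probes is not given. After scaling, let-7b-3p and let-7f-1-3p differed by -0.25 (limma, p = 0.349, adjusted p = 0.802) and -0.21 (p = 0.409, adjusted p = 0.813). Before scaling, their median intensities were higher in HCM, at 13.6 against 11.8 in healthy sera for let-7b-3p and 11.0 against 9.21 for let-7f-1-3p. The negative signs are thus those of the scaled values. let-7d-3p was detected on 1 array and the other 5 on 0. Unscaled, let-7b-3p spanned 8.46 to 15.6 intensity units over the arrays, a 1.84-fold range, and let-7f-1-3p a 1.83-fold range, while the 75th percentile of the arrays spanned 7.73-fold. let-7b-5p spanned 23.8-fold and let-7i-5p 56.2-fold. The scaled log2 values of the 3p and 5p probes of let-7b had a Pearson's r of 0.081 over the 23 arrays, given as a description. Since the unscaled let-7b-3p signal varied less than the arrays, this r carries the scaling and cannot tell whether the strands vary together.

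**Figure D4:**
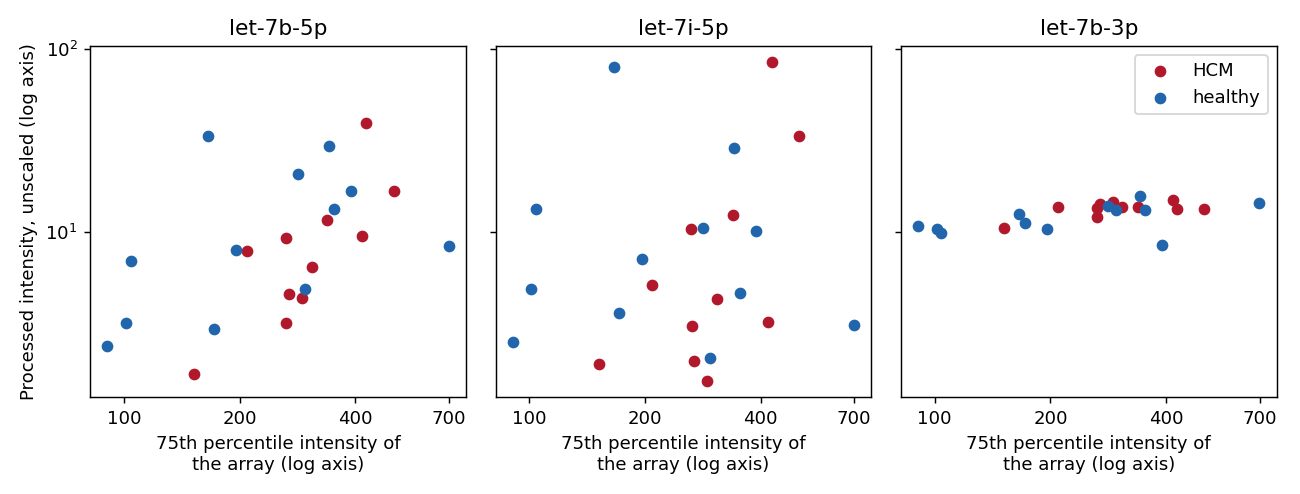
Unscaled processed intensity (log axis) of let-7b-5p, let-7i-5p and let-7b-3p against the 75th percentile intensity of each array (log axis), HCM in red and healthy in blue. let-7b-3p stays between 8.46 and 15.6 while the arrays span 90.5 to 699, and the 5p strands spread 23.8-fold and 56.2-fold.

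The authors' deposited log2 table held 6 of the 14 member probes, for let-7a-5p, let-7b-5p, let-7g-5p and let-7i-5p. All 6, which cover 4 names, had a negative difference, beside 51.8% of the 1750 miRNA probes of that table, and 0 passed when every miRNA probe of that table was tested alone (limma, 13 of 1750 probes called, 0.743%). With 1 probe per name, 1 of 965 names was called (0.104%), and it was no let-7 member. let-7a-5p had the largest, at 1.49 ± 0.31 in HCM (SD, n = 11) and 2.15 ± 0.60 in healthy sera (n = 12), a difference of -0.66 (SE 0.20, limma, p = 0.00348, adjusted p = 0.244). Of the deposited let-7a-5p values, 10 of 11 HCM sera were below the healthy median, and 112 of 1750 probes (6.40%) had an unadjusted p under 0.05. The same probe was well above background on 1 array only, so the difference lies within values at background. The let-7g-5p probe was well above background on 2 arrays, so no size is given for it. Its highest deposited healthy value was 4.16, in healthy replicate 21. On that array 1 spot of the probe, at 36.9, was marked as an outlier, and the kept spots averaged 0.979. The log2 mean with that spot included was 1.75 unscaled and 2.14 scaled, both under the deposited 4.16. The part of that spot in the negative sign was not tested. The let-7i-5p probes differed by -0.51 (p = 0.317) and -0.43 (p = 0.414).

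For let-7b-5p the deposited values of its probes disagreed, with differences of -0.06 (limma, p = 0.899) for the main probe and -0.50 (p = 0.176) for the other. HCM replicate 5 stood apart. Its deposited main probe value was 7.34 against 2.54 from the scanner file, while on the other arrays the deposited value differed by -0.17 to 0.40. Of the 15 spots of that probe, 1 had an intensity of 3195 and was marked as an outlier by the scanner software, and the other 14 averaged 9.47. Without HCM replicate 5 the deposited difference was -0.45 (n = 10 and 12).

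**Figure D5:**
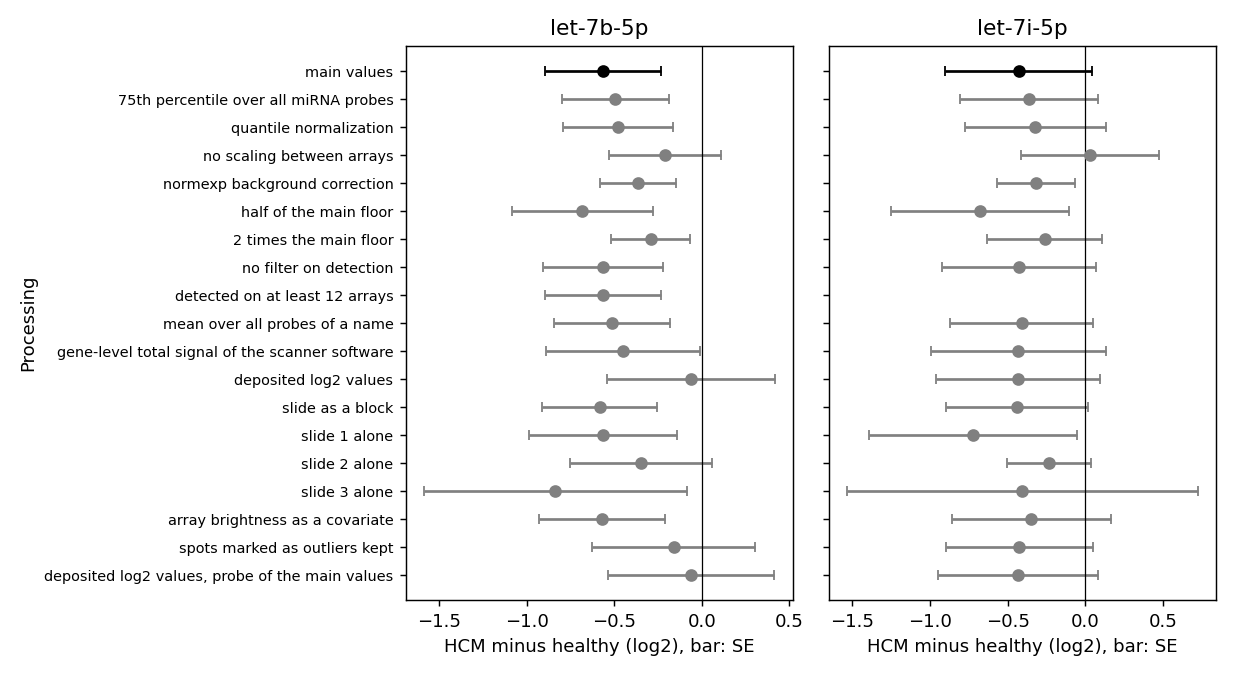
HCM minus healthy on the log2 scale (points, bars show ± SE) for let-7b-5p (left) and let-7i-5p (right) with the main values (black) and under each other way of processing (grey). let-7b-5p stays negative, between -0.84 and -0.06, and let-7i-5p lies between -0.72 and 0.030, above 0 only without scaling between arrays.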

How the data were processed

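Serum RNA was hybridised to Agilent 1-colour human miRNA arrays. Spot intensity in the scanner files is on a linear scale, per the file headers, and comes from Agilent Feature Extraction 10.7.3.1 (also named in the submitters' processing notes), background already subtracted, with no normalization between arrays. The authors' deposited table holds log2 values for 1758 probes. Over probes above an intensity of 8 these correlated per array at 0.987 to 0.9998 with the log2 scanner intensities, which settles their scale and direction. Their normalization is not given in the sources used here, and column medians ran from 2.98 to 3.31.

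Spots marked as outliers were left out and the kept spots of a probe averaged. Arrays were scaled to the 75th percentile of the 508 probes detected on all arrays, values floored at 5.45 (the 5th percentile of scaled signals of detected probes) and log2 transformed. A name was represented by its probe of highest mean log2 value (ties by probe number) and tested when detected on at least 6 of 23 arrays (543 names), with limma 3.58.1 in R 4.3.3 (lmFit and eBayes, 2-sided, Benjamini-Hochberg over all tested names), checked on simulated data. Detection was tested by Fisher's exact test and correlations by 100000 permutations. The normexp alternative used the median spot signal, since no mean signal column was present. Named were the 7 members, 18 related names (values where tested, the rest as detection counts) and the 5 tested names most correlated with each tested member. The members and lists were chosen with earlier results of these data known. Each cat is 1 array, and the number of arrays limits the precision. No genome was used, so no positions are given.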

Additional observations from a re-analysis of the deposited data

Results flagged for a closer look

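Among the 4830 let-7 spots on the 23 arrays, 84 were marked as outliers by the scanner software and left out of the main values. Of these, 4 had an unscaled intensity more than 10 times both the mean of the kept spots of their probe and 5.45. That number is the floor, which elsewhere applies to scaled intensities. They were a let-7b-5p spot at an intensity of 3195 in HCM replicate 5, a let-7e-5p spot at 358 in healthy replicate 14, a let-7i-5p spot at 128 in healthy replicate 22 and a let-7g-5p spot at 95.3 in healthy replicate 15. The kept spots of those probes averaged 9.47, 0.517, 10.2 and 0.874. No test of single outlying samples was applied to these groups of 11 and 12 sera.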

How the results depend on the processing

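let-7b-5p kept its negative sign in 18 of 18 alternatives (-0.84 to -0.06) and let-7i-5p in 16 of 17 (-0.72 to 0.030), with a lowest adjusted p of 0.423 (limma) for either. These counts include changes of the detection filter alone, which cannot move a member's difference. They also include both settings with deposited values, which gave the same difference for each name. Without scaling between arrays let-7i-5p reversed to 0.030 and let-7b-5p was -0.21, while the median of all names moved from -0.10 to 0.22, so that relative to it they differed by -0.19 and -0.42. With normexp that median was -0.25, and relative to it let-7b-5p differed by -0.11 and let-7i-5p by -0.07. The size of both differences also moved with the floor, at which 8 let-7b-5p and 10 let-7i-5p values lay. With a lower floor let-7b-5p differed by -0.68 and let-7i-5p by -0.68. With 2 times the main floor they differed by -0.29 and -0.26. With the outlier spots kept, chosen after seeing the data, let-7b-5p was -0.16 (limma, p = 0.736). Leaving out 1 array at a time gave -0.73 to -0.36 for let-7b-5p, -0.69 to -0.11 for let-7i-5p and 0 to 0 names called. Names called by limma numbered 2 with a lower floor, 1 with the scanner's gene-level signal, 1 with the deposited values, 2 on slide 2 alone and 5 with the deposited values of the main probes (added after seeing the data), in each case without a let-7 member and with the cause not tested. With the scanner's weaker call of a positive and significant spot, let-7a-5p was detected on 10 arrays, let-7b-5p on 23, let-7f-5p on 4, let-7g-5p on 6 and let-7i-5p on 23. With its gene-level call, let-7a-5p was detected on 3 and let-7f-5p on 1. The let-7b-5p and let-7i-5p correlation was 0.481 in the deposited values and 0.897 after removing slide and group means. let-7i-5p had no value with a filter of 12 arrays, on which it was not detected. No paired analysis was possible because the groups share no replicate number. By the main detection rule most members lay at background on most arrays, so neither a change nor its absence could be measured for them.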
